A study of Mus musculus with 15 samples.

Results

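Collagen genes were followed in the mouse auditory nerve after noise, with the cartilage chains Col2a1, Col9a1 and Col11a1 left aside. Members were all platform gene symbols made of Col, a type number, a and a chain number, apart from those 3 chains. The rule itself uses no measured value, although the set was proposed with earlier results of these data known. This gave 39 of the 18193 genes on the platform: 9 chains of fibrillar collagens, 8 of basement membrane collagens and 22 of other types. Other symbols that stay in by this rule, Col9a2, Col9a3, Col10a1 and Col11a2, also belong to collagens known from cartilage, so the set is not free of cartilage chains. All 9 fibrillar, all 8 basement membrane and 17 of the 22 other chains had a mean above the filter on low values, and these 34 were tested. Col6a4, Col6a5, Col10a1, Col17a1 and Col26a1 were at or below the filter level of 4.70 on the log2 scale, and no array read any of them above 4.56.

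The samples were CBA/CaJ mice, bred in a quiet colony and aged 5 to 12 weeks, and each of the 15 Affymetrix arrays measured the RNA of the nerves of 1 animal, both ears joined. Noise animals were exposed for 2 h to octave-band noise (8 to 16 kHz, 106 dB SPL) and were taken immediately or 1, 7 or 14 days later, with 3 animals at each time; 3 control animals heard no noise. All groups were dissected in the same way, by taking away the outer bone, the side wall and the greater part of the organ's sensory epithelium, so each array holds the core of the cochlea with the nerve. Sex was not balanced: the 1-day animals were all male and the controls all female. The immediate, 7-day and 14-day groups had 1 male each. Time and sex can therefore not be told apart at 1 day from these groups themselves. A fit with sex as a term draws the sex difference from the mixed groups alone. It assumes that this difference is the same in controls and at 1 day, which could not be checked.

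Collagens are proteins of 3 chains wound into a triple helix. Fibrillar collagens pack into the fibrils of bone, dura and connective tissue; type IV collagen forms the sheet under endothelium and around each Schwann cell; and smaller types sit on fibrils, make microfibrils or span the membrane. In the cochlea, type IV chains lie in the basement membranes of vessels and nerve, and loss of the chains made by Col4a3, Col4a4 or Col4a5 causes Alport syndrome, a kidney disease with hearing loss.

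Markers of the labelled tissue were high on every array. The mean of the 8 measured Schwann cell markers lay between 10.37 and 10.69 on the log2 scale and that of the 10 neuron markers between 10.61 and 10.88. The mean of the 7 measured bone markers, of 12 listed, lay between 7.52 and 9.21, and control replicate 3 was the highest of all arrays. The macrophage marker mean was 7.35 to 7.60 at 1 day, against 6.51 to 6.71 in controls. In such bulk tissue, fewer cells of a type and less RNA per cell cannot be told apart.

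Few collagen genes passed the test at any time. The test was limma's moderated test over all 13644 tested genes, adjusted by Benjamini-Hochberg, and a call is an adjusted p under 0.05. Immediately after noise 0 of the 34 chains were called against control, where 0.931% of all genes were; at an unadjusted p under 0.05 there were 6 chains, 17.6% of them, beside 15.5% of all genes. At 1 day 2 chains were called, Col16a1 higher and Col4a3 lower, which is 5.88% of the chains beside 3.18% of all genes; 26.5% of the chains and 17.9% of all genes had an unadjusted p under 0.05. The count over all genes at 1 day was 434, against 75 with sex as a term and 125 without control replicate 3. At 7 days 0 were called, beside 0.0220% of all genes, with 5 chains at an unadjusted p under 0.05, 14.7% beside 11.2% of all genes. At 14 days 0 were called, beside 0.00% of all genes, and 7 chains had an unadjusted p under 0.05, where 7.85% of all genes did. All 7 of those were lower than control, 20.6% of the chains, where 2.84% of all genes were lower at that level. Without control replicate 3, 4 chains were, the type IV chains Col4a1 to Col4a4, 11.8% beside 2.37% of all genes; Col1a2, Col3a1 and Col5a2 were no longer among them. Counted by array, 7 chains had all 3 arrays of 14 days below all 3 controls, 20.6% beside 5.45% of all genes, and at 1 day 7 chains did, beside 12.5% of all genes. Between consecutive times 2 chains were called at 1 day against the immediate time, Col16a1 higher and Col3a1 lower, beside 8.39% of all genes; 5 chains, 14.7%, had an unadjusted p under 0.05, beside 24.4% of all genes. Col16a1 was the 1 chain called at 7 days against 1 day, lower, beside 9.35% of all genes, and 3 chains had an unadjusted p under 0.05, 8.82% beside 25.8% of all genes. At 14 days against 7 days 0 were called, beside 0.00% of all genes, and 0 chains had an unadjusted p under 0.05, beside 2.10% of all genes. The moderated F test over the 5 groups called 1 chain, Col16a1 (adjusted p = 0.00149 by limma), beside 6.75% of all genes.

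**Figure D1:**
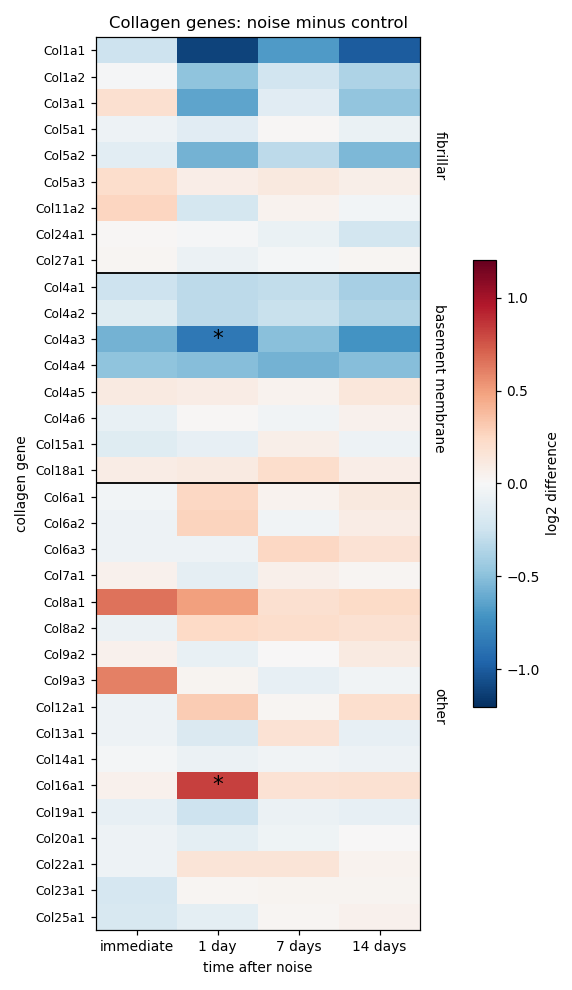
Difference on the log2 scale between each noise group and control, for the 34 tested collagen chains (rows, by class) at 4 times after noise (columns); red is higher after noise, blue lower, and an asterisk marks an adjusted p under 0.05. The called cells are Col16a1 (0.82) and Col4a3 (-0.86), both at 1 day, and the blue rows of Col4a1 to Col4a4 run through all times.

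Col16a1 rose at 1 day and was back near the control level at 7 days. It encodes the chain of type XVI collagen, which sits on fibrils and in the matrix near basement membranes. In the order of time its log2 values were 7.59, 7.67 and 7.74 in controls, 7.80, 7.62 and 7.73 immediately after noise, 8.30, 8.72 and 8.43 at 1 day, 7.77, 7.78 and 7.96 at 7 days, and 7.82, 7.82 and 7.91 at 14 days. The 3 arrays of 1 day stood above all 12 others. The difference of 1 day minus control was 0.82 ± 0.10 (SE, n = 3 each; 1.76-fold; adjusted p = 0.000917 by limma), and that of 1 day minus immediate was 0.77 ± 0.10 (adjusted p = 0.000572 by limma). At 7 days minus 1 day it was -0.65 ± 0.10 (adjusted p = 0.00190 by limma). The gene remained called at 1 day against control whichever array was left out, in 15 of 15 fits with differences of 0.70 to 0.91, and with sex as a term (0.86 ± 0.13, adjusted p = 0.0151 by limma). At 7 and 14 days all 3 arrays of each group lay above the 3 controls, by 0.17 and 0.18 on average (adjusted p = 0.536 and 0.670 by limma). At 7 days 8.19% of all genes lay above the controls without overlap. It had a single probe set, so no second reading of it exists on the array. The macrophage markers were high in the same 3 arrays. At 1 day against control 5 of 9 tested were called, all higher, of which 2, Aif1 and Cd68, were called with sex as a term. At 1 day against immediate 7 of the 9 were called, all higher. Of these, Aif1, Cd68, C1qa, C1qb and C1qc were called with sex as a term, and Csf1r and Mrc1 were not. The part of macrophages in the Col16a1 result was not tested.

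The bases before the Col16a1 gene start and, for comparison, before the Col3a1 gene start are shown because these are the chains with opposite calls between the immediate time and 1 day; they were chosen after those values were seen. Both come from RefSeq on GRCm38.p6, 5′ to 3′ on the plus strand, and end at the base before the gene: chr4:130047590-130047816 for Col16a1 (227 bases) and chr1:45311288-45311537 for Col3a1 (250 bases). Capitals mark matches to 4 motifs searched on both strands: the CCAAT box, the GC box (GGGCGG), the TATA box (TATAAA) and an AP-1 site (TGANTCA). No match overlaps another here.
Col16a1: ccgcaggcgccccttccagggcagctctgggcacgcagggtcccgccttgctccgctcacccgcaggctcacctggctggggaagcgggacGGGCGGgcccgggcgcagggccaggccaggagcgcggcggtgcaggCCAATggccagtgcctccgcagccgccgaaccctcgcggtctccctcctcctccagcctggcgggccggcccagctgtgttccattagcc
Col3a1: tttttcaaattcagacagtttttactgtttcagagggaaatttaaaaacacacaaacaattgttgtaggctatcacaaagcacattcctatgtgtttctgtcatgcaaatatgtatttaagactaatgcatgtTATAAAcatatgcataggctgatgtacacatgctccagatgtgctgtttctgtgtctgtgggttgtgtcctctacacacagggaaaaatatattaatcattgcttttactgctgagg

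The Col16a1 stretch is 75.8% G or C and holds 1 GC box and 1 CCAAT. The Col3a1 stretch is 35.2% G or C and holds 1 TATA box. Windows of 250 bases before to 50 after the start were at hand for 31 of the 39 members. The GC box was in 64.5% of the member windows and 38.2% of all 27025 genes with a window, and the TATA box in 16.1% and 15.7%. CCAAT was in 35.5% of member windows and 41.1% of all, and the AP-1 letters in 3.23% and 8.97%. These shares describe letters in a window, and a match is not a site that was measured.

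Among the 9 fibrillar chains, all were lower at 1 day than immediately after noise, with a median of -0.45, where the median over all tested genes was 0.01 and 47.8% of genes were lower. Col3a1 was the 1 fibrillar chain called. It encodes type III collagen, the fibril of vessel walls and soft connective tissue. Its log2 values were 8.60, 8.62 and 8.54 at 1 day, against 9.18, 9.39 and 9.64 immediately after noise. The groups did not overlap, and the 1-day arrays lay close together (SD 0.04, n = 3). The difference was -0.82 ± 0.21 (SE, n = 3 each; adjusted p = 0.0289 by limma). The same 1-day arrays also lay below the controls, which read 9.22, 8.98 and 9.45, with a difference of -0.63 ± 0.21 (adjusted p = 0.118 by limma). With sex as a term this difference was -0.43 ± 0.27 (adjusted p = 0.499 by limma). Col3a1 was called against control without 7-day replicate 3 (adjusted p = 0.0371 by limma), an array of neither group, and in no other fit that left out 1 array. At 7 days it read 8.85, 8.75 and 9.64 and at 14 days 8.35, 8.96 and 8.94, which overlapped the controls at 7 days and lay below all of them at 14 days.

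The call of Col3a1 depended on the setting. With sex as a term the difference was -0.69 ± 0.24 (adjusted p = 0.111 by limma). It was called in 10 of 15 fits that left out 1 array and lost in 5: without immediate replicate 2 (-0.82, adjusted p = 0.0664) or replicate 3 (-0.70, 0.121), and without 1-day replicate 1 (-0.82, 0.0640), replicate 2 (-0.83, 0.0774) or replicate 3 (-0.79, 0.0829), all by limma. It was also lost with robust eBayes (adjusted p = 0.0529 by limma) and with the mean over probe sets (-0.73, 0.0536). The second probe set of the gene gave -0.63 ± 0.23 (adjusted p = 0.124 by limma).

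Col1a1 and Col1a2, the chains of type I collagen of bone and dura, and Col5a2, a chain of the type V collagen within type I fibrils, were spread by 1 control array. Col1a1 read 5.61, 5.82 and 5.81 at 1 day, against 6.39, 6.33 and 7.10 immediately after noise and 5.89, 5.84 and 8.84 in controls. Control replicate 3 stood apart from all the rest, and the 1-day arrays were below every immediate and control array. Col1a2 read 11.73, 11.72 and 11.60 at 1 day, against 12.04, 12.12 and 12.29 immediately after noise and 11.93, 11.96 and 12.59 in controls. Here too the groups did not overlap. Col5a2 read 8.07, 8.07 and 8.01 at 1 day, against 8.41, 8.33 and 8.75 immediately after noise and 8.22, 8.23 and 9.42 in controls. With all arrays and the chosen probe sets, none of these was called at 1 day against immediate: the differences were -0.86 ± 0.56 for Col1a1 (adjusted p = 0.373 by limma), -0.47 ± 0.15 for Col1a2 (adjusted p = 0.0618) and -0.45 ± 0.23 for Col5a2 (adjusted p = 0.258). Against control at 1 day Col1a2 differed by -0.48 ± 0.15 (adjusted p = 0.0898 by limma).

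The call of Col1a2 turned on the setting. With the mean over probe sets it was called at 1 day against immediate (-0.46, adjusted p = 0.0402 by limma) and against control (-0.57, 0.0309). With array weights it was likewise called (-0.50, 0.0397, and -0.54, 0.0375). With sex as a term it was called in neither comparison (-0.42 ± 0.17, adjusted p = 0.175 by limma, and -0.40 ± 0.20, 0.355). Its other 2 probe sets gave -0.53 ± 0.16 and -0.39 ± 0.11 at 1 day against immediate, and -0.70 ± 0.16 and -0.54 ± 0.11 against control. The second probe set of Col5a2 gave -0.61 ± 0.17 at 1 day against immediate, and that of Col1a1 -0.31 ± 0.34. With sex as a term Col1a1 and Col5a2 were not called in this comparison either (adjusted p = 0.507 and 0.380 by limma).

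**Figure D2:**
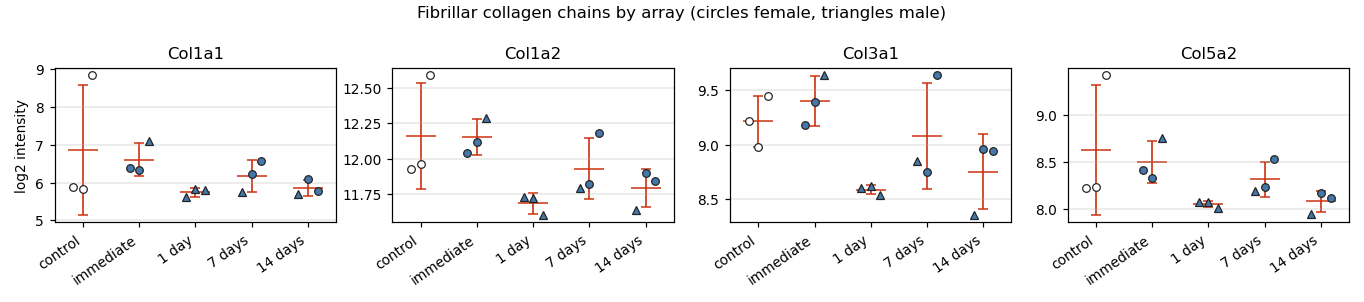
Log2 intensity of Col1a1, Col1a2, Col3a1 and Col5a2 on each array, by group in order of time; circles are female and triangles male, open symbols control, and bars give the mean and SD of 3 arrays. Control replicate 3 is the highest array for Col1a1 (8.84), Col1a2 (12.59) and Col5a2 (9.42), and the 1-day arrays of each gene lie close together.

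Without control replicate 3 the comparison of 1 day with immediate called 5 chains: Col16a1 higher and Col1a1 (-0.86, adjusted p = 0.0288), Col1a2 (-0.47, 0.0136), Col3a1 (-0.82, 0.0325) and Col5a2 (-0.45, 0.0285) lower, by limma. Control replicate 3 is in neither of these groups, so the differences were the same as with all arrays. What changed was the spread estimated over all arrays, with an SE of 0.10 for Col1a2 in place of 0.15. Leaving out 7-day replicate 3, also in neither group, let Col1a2 pass too (adjusted p = 0.0434 by limma). That control array read 7 of the 34 chains higher than any other array, and it had the highest bone marker mean. Without it, the differences of 1 day minus control were -0.12 for Col1a1, -0.26 for Col1a2, -0.51 for Col3a1 and -0.17 for Col5a2, where all arrays gave -1.11, -0.48, -0.63 and -0.57. The unadjusted p of Col1a2 and Col3a1 was then 0.0310 and 0.0445, and none of the 4 was called (adjusted p of 0.304 or more by limma).

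Markers of bone, cartilage, tendon and fibroblasts were set beside the fibrillar chains in the same comparisons. At 1 day against immediate, the median over 7 tested bone markers was -0.18, with 1 called, Dmp1 (a protein of osteocytes), lower. At 1 day against control it was -0.81, where the fibrillar median was -0.21, and Ibsp (bone sialoprotein) and Dmp1 were called lower; both calls were lost with sex as a term (adjusted p = 0.148 and 0.0822 by limma) and without control replicate 3 (0.155 and 0.149). Immediately against control the bone median was -0.48, where the fibrillar median was 0.01. The bone marker mean was 7.52 to 7.99 at 1 day, against 7.73 to 8.57 immediately after noise and 8.16 to 9.21 in controls.

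Of the cartilage markers, 3 of 8 tested were called at 1 day against immediate, all lower: Hapln1 (a link protein of cartilage matrix), Ucma (a protein of young chondrocytes) and Col2a1 (the chain of type II collagen). The median over the 8 was -0.40. Against control, Acan (aggrecan) was called lower immediately, and Acan and Ucma at 1 day, with medians of 0.06 and -0.50. With sex as a term the 1-day call of Acan against control was lost (adjusted p = 0.0639 by limma) and that of Ucma was kept (0.0316). Of 5 tendon markers, Tnmd (tenomodulin) was called lower at 1 day against both immediate and control. Of 9 fibroblast markers, Pdgfra, a growth factor receptor, was called higher at 1 day against immediate, with a median of 0.19 over the 9, and it was lost with sex as a term (adjusted p = 0.0786 by limma). At 1 day against control 0 of the 9 were called, and 0 had an unadjusted p under 0.05. The part of bone, cartilage or tendon in the fibrillar, Col11a2 and Col9a3 values was not tested.

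**Figure D3:**
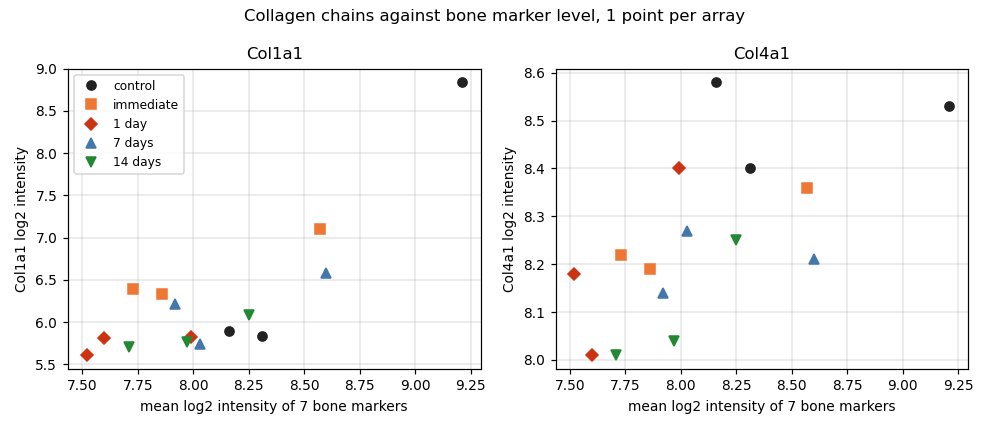
Log2 intensity of Col1a1 (left) and Col4a1 (right) against the mean log2 intensity of 7 bone markers, 1 point per array, coloured by group. Control replicate 3 lies at 9.21 on the bone axis and 8.84 for Col1a1, apart from the other arrays, while its Col4a1 value of 8.53 lies between those of the other controls.

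The other fibrillar chains stayed within a narrow range against control. Col5a1, Col5a3, Col11a2, Col24a1 and Col27a1 had mean differences between -0.22 and 0.26 at the 4 times, with no call. Col11a2, a chain of type XI collagen that is best known from cartilage, read 7.09, 7.26 and 7.37 at 1 day, against 7.35, 7.85 and 7.92 immediately after noise, a difference of -0.47 ± 0.15 (adjusted p = 0.0738 by limma). The groups overlapped, with the highest 1-day array above the lowest immediate array, immediate replicate 1. Leaving out that array takes away the overlap and widens the difference, and the gene was then called (-0.64, adjusted p = 0.0244 by limma). No other fit that left out 1 array called Col11a2. With sex as a term the difference was -0.42 ± 0.18 (adjusted p = 0.191 by limma).

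Of the 6 type IV genes, Col4a1, Col4a2, Col4a3 and Col4a4 had mean RNA values below control at all 4 times with the chosen probe sets. The 4 differences of a gene share the same 3 control arrays, all female, so the times do not repeat the result independently. A mean below control at all 4 times was found for 9 of the 34 chains, 26.5%, and for 16.3% of all genes. Col4a3 was the 1 called chain. Its product joins those of Col4a4 and Col4a5 in a special network. In the order of time it read 6.25, 6.02 and 6.03 in controls, 5.80, 5.59 and 5.21 immediately after noise, 5.59, 5.03 and 5.11 at 1 day, 5.99, 5.59 and 5.21 at 7 days, and 5.68, 5.38 and 5.09 at 14 days. All 12 noise arrays lay below all 3 controls; this held for 1 of the 34 chains, 2.94%, and for 0.359% of all genes. The difference of 1 day minus control was -0.86 ± 0.21 (SE, n = 3 each; 0.552-fold; adjusted p = 0.0413 by limma). At the other times it was -0.57 ± 0.21 immediately, -0.50 ± 0.21 at 7 days and -0.72 ± 0.21 at 14 days (adjusted p = 0.213, 0.399 and 0.504 by limma).

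The Col4a3 call at 1 day was not held in all settings. It was called in 8 of 15 fits that left out 1 array. It was lost without control replicate 1 (-0.78, adjusted p = 0.113), replicate 2 (-0.90, 0.0806) or replicate 3 (-0.89, 0.108), without immediate replicate 2 (-0.86, 0.0542), without 1-day replicate 2 (-0.75, 0.175) or replicate 3 (-0.79, 0.130), and without 14-day replicate 2 (-0.86, 0.0512), all by limma. With sex as a term the difference was -1.04 ± 0.28 (adjusted p = 0.105 by limma), and the call was also lost with eBayes without trend (adjusted p = 0.0535) and with the mean over probe sets (-0.71, 0.0551). A second probe set of the gene, whose mean of 4.53 is below the filter level, also read lower at every time, by -0.39, -0.57, -0.61 and -0.72.

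Col4a1 and Col4a2, whose products form the main sheet of most basement membranes, differed from control by less than Col4a3. Col4a1 read 8.58, 8.40 and 8.53 in controls, 8.22, 8.19 and 8.36 immediately, 8.18, 8.40 and 8.01 at 1 day, 8.27, 8.14 and 8.21 at 7 days, and 8.01, 8.25 and 8.04 at 14 days. Of the 12 noise arrays, 11 lay below the lowest control and the other equalled it at the printed precision. The differences were -0.25, -0.31, -0.30 and -0.40 in time order, each ± 0.10 (SE). The smallest adjusted p of the 4 was 0.0958 by limma, at 1 day. At 14 days the unadjusted p was 0.000786 and the adjusted p was 0.434. A second probe set of Col4a1 did not show this: it gave 0.06, -0.16, -0.09 and 0.00 at the same times, each ± 0.08.

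Col4a2 read 7.77, 7.65 and 7.88 in controls, 7.66, 7.55 and 7.65 immediately, 7.55, 7.40 and 7.42 at 1 day, 7.61, 7.37 and 7.50 at 7 days, and 7.44, 7.51 and 7.26 at 14 days. From 1 day on, every noise array was below every control. Of all genes, 12.5% lay below the controls without overlap at 1 day and 5.45% at 14 days. The differences were -0.15, -0.31, -0.27 and -0.36, each ± 0.09, and the smallest adjusted p was 0.0704 by limma at 1 day. With quantile normalization or a common 75th percentile Col4a2 joined the calls at 1 day, which made 3. Among female arrays alone, an alternative chosen after the data were seen, Col4a1 differed by -0.33 at 7 days and -0.36 at 14 days and Col4a2 by -0.33 and -0.38, without a call.

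Col4a4, which neighbours Col4a3 head to head in the genome as Col4a1 does Col4a2, read 8.55, 8.18 and 8.07 in controls, 7.76, 7.84 and 7.77 immediately, 8.10, 7.59 and 7.57 at 1 day, 8.12, 7.29 and 7.68 at 7 days, and 7.88, 7.72 and 7.67 at 14 days. The immediate and 14-day arrays were all below the controls, and 1 array each at 1 day and 7 days lay among them. The differences were -0.48, -0.51, -0.57 and -0.51, each ± 0.18, with adjusted p of 0.145 or more by limma. The value at 7 days was -0.78 (adjusted p = 0.0621) without 7-day replicate 1 and -0.37 (0.514) without replicate 2, by limma. With array weights the gene was called at 1 day (-0.49, adjusted p = 0.0493 by limma). Its other 2 probe sets also read lower at each time, between -0.51 and -0.12.

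**Figure D4:**
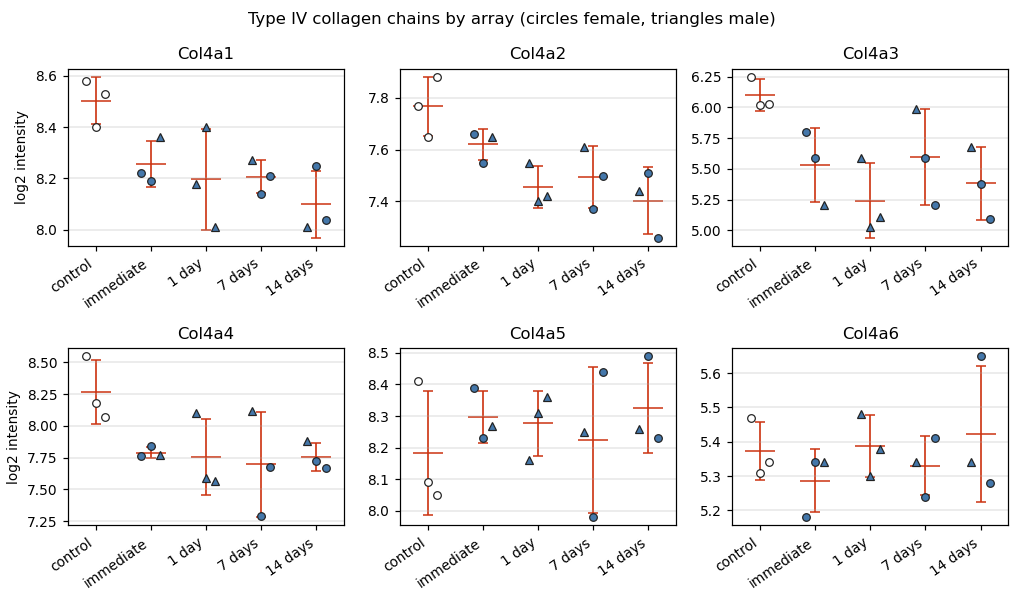
Log2 intensity of the 6 type IV collagen chains on each array, by group in order of time; circles are female and triangles male, open symbols control, and bars give the mean and SD of 3 arrays. For Col4a3 the 12 noise arrays (highest 5.99) lie below the 3 controls (lowest 6.02), while for Col4a5 and Col4a6 the noise arrays overlap the controls at every time.

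Col4a5 and Col4a6, the neighbouring pair on the X chromosome, overlapped the controls at every time. Col4a5 differed by 0.11, 0.09, 0.04 and 0.14 in time order, each ± 0.12, and Col4a6 by -0.09, 0.01, -0.04 and 0.05, each ± 0.11. Whether they differ in response from the other chains was not tested. Col15a1 and Col18a1, whose products are multiplexin collagens of basement membrane zones, were not called either. Col15a1 lay between -0.15 and 0.07 of control. Col18a1, the source of endostatin, read 7.12, 7.22 and 7.31 at 7 days, against 6.88, 7.03 and 7.10 in controls, a difference of 0.21 ± 0.10 (adjusted p = 0.432 by limma). These groups did not overlap, which was so for 8.19% of all genes in this direction.

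Of the endothelial markers, 0 of 10 were called against control at any time, and the median over them was -0.05 immediately, 0.03 at 1 day, 0.06 at 7 days and 0.00 at 14 days. Pericyte and smooth muscle markers were not called either, 0 of 8 at each time, with medians of -0.07, 0.00, -0.18 and -0.05. At an unadjusted p under 0.05, 1 of these 8 was lower immediately, 0 at 1 day, 2 at 7 days and 2 at 14 days. Of all genes, 8.22%, 10.2%, 5.21% and 2.84% were lower at that level in time order. The part of these cells in the type IV values was not tested. The mean of the 8 Schwann cell markers was 10.37 to 10.46 at 1 day, against 10.39 to 10.56 in controls, and 1 of 8, Ncmap, was called at 1 day, lower, which was lost with sex as a term (adjusted p = 0.0996 by limma) and without control replicate 3 (0.0818).

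Col8a1 encodes a chain of type VIII collagen, a short-chain collagen of vessel walls. It read 9.58, 9.52 and 9.78 immediately after noise and 9.48, 9.72 and 9.21 at 1 day, against 9.17, 8.79 and 8.98 in controls. Both noise groups lay above all controls. The differences were 0.65 ± 0.20 immediately and 0.49 ± 0.20 at 1 day (SE, n = 3 each; adjusted p = 0.135 and 0.199 by limma). All 3 probe sets of the gene read higher immediately, by 0.43, 0.58 and 0.65. At 7 days it read 9.06, 8.86 and 9.58 and at 14 days 8.77, 9.36 and 9.50, both overlapping the controls.

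Col9a3, a chain of type IX collagen that decorates cartilage fibrils, read 8.81, 9.23 and 8.96 immediately, against 8.77, 8.06 and 8.37 in controls, a difference of 0.60 ± 0.22 (adjusted p = 0.200 by limma). The 3 immediate arrays were above all controls. Another probe set of the gene, with a similar mean of 8.32, gave 0.01 ± 0.11 in the same comparison, so the probe sets disagree. At 1 day the gene read 8.12, 8.66 and 8.50 and was lower than at the immediate time by -0.57 ± 0.22 (adjusted p = 0.114 by limma).

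**Figure D5:**
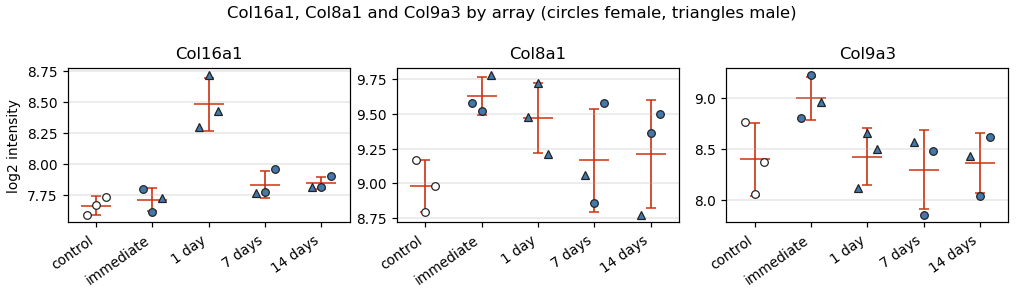
Log2 intensity of Col16a1, Col8a1 and Col9a3 on each array, by group in order of time; circles are female and triangles male, open symbols control, and bars give the mean and SD of 3 arrays. The 3 arrays of 1 day stand apart for Col16a1 (8.30 to 8.72), and the immediate arrays lie above the controls for Col8a1 (9.52 to 9.78) and Col9a3 (8.81 to 9.23).

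Col13a1, a collagen that spans the cell membrane, read 5.75, 5.83 and 5.72 at 7 days, against 5.31, 5.26 and 5.70 at 1 day, a difference of 0.34 ± 0.14 (adjusted p = 0.136 by limma). The groups did not overlap. Col6a1, Col6a2 and Col12a1 varied more among the 7-day animals than between groups. Col6a1, a chain of the beaded microfibrils of type VI collagen, read 7.84, 6.93 and 8.57 at 7 days, against 7.97, 7.44 and 7.82 in controls. For each of these genes 7-day replicate 2 was the lowest and 7-day replicate 3 the highest of the 15 arrays. That lowest array also read 7 of the 34 chains lower than any other array did, and its pericyte and smooth muscle marker mean of 7.86 was the lowest. Its 75th percentile over all probe sets, 7.62, was the lowest of the 15 arrays as well. None of the 3 genes was called.

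The remaining other chains, Col6a3, Col7a1, Col8a2, Col9a2, Col14a1, Col19a1, Col20a1, Col22a1, Col23a1 and Col25a1, differed from control by -0.25 to 0.25 with no call at any time. This range is of the chosen probe sets, and some other probe sets lay outside it. One of Col14a1, with a mean of 8.30, gave -0.30 ± 0.08 immediately, where the chosen one gave -0.02. One of Col19a1 gave -0.38 ± 0.15 at 1 day, where the chosen one gave -0.25. Over the whole set the median difference from control was -0.06 immediately, -0.08 at 1 day, 0.01 at 7 days and 0.01 at 14 days, where all tested genes had -0.02, -0.01, 0.01 and 0.02.

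Genes that act with collagen were mostly not called. Of 19 tested genes that hydroxylate, fold and export procollagen, 0 were called against control at any time, and Ppib, a prolyl isomerase of the endoplasmic reticulum, fell by 0.18 at 7 days against 1 day (adjusted p = 0.0367 by limma). Among 10 genes of procollagen cleavage and crosslinking, 1 was called: Pcolce, which speeds removal of the end of fibrillar procollagens, rose by 0.54 ± 0.14 at 1 day (adjusted p = 0.0450 by limma) and differed by -0.58 at 7 days against 1 day. Of 11 genes of collagen breakdown and its inhibitors, Timp1, an inhibitor of metalloproteinases, rose by 1.48 ± 0.23 at 1 day (2.79-fold, adjusted p = 0.00449 by limma) and differed by -1.17 at 7 days against 1 day. Of 8 collagen receptors, Itga10, an integrin chain that binds collagen, was lower immediately by -0.49 ± 0.07 (adjusted p = 0.00367 by limma) and called higher at 1 day against immediate. With sex as a term the calls of Ppib, Pcolce and Itga10 in comparisons with 1 day were lost (adjusted p of 0.0557 or more by limma), and those of Timp1 were kept.

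Among 14 partners of the basement membrane, Lamc3, a laminin chain, fell at 1 day by 0.52 (adjusted p = 0.0144 by limma), and Lamc1 was lower at 1 day than immediately by -0.27. Nid1, Nid2 and Hspg2, the nidogens and perlecan that link laminin to type IV collagen, had differences between -0.12 and 0.23 against control with no call. Of 15 genes of matrix around fibrils, Sparc, a collagen-binding protein made by bone cells among others, fell by 0.32 at 1 day (adjusted p = 0.0217 by limma), and Fbn2, a fibrillin, by 0.67 (adjusted p = 0.0155). Of 12 genes of TGF-beta signalling and its targets, Tgfbi, a matrix protein induced by TGF-beta, was 1.14 above control immediately (2.21-fold, adjusted p = 9.98e-05 by limma). At 1 day it was 0.74 above control. Smad3, which carries the signal to the nucleus, rose by 0.68 immediately (adjusted p = 0.0145 by limma). At 1 day against immediate, Tgfbi (-0.41, adjusted p = 0.0220 by limma) and Smad3 (-0.59, 0.00869) were called lower. Tgfbr2 was called higher in that comparison (0.37, 0.00502). These calls against immediate were kept with sex as a term and without control replicate 3. At 7 days against 1 day 4 of the 12 fell: Tgfbi, Ccn2, Smad7 and Tgfbr2. The 1-day calls against control of Pcolce, Lamc3, Sparc and Fbn2 were lost with sex as a term (adjusted p = 0.273, 0.132, 0.205 and 0.0706 by limma) and without control replicate 3 (0.143, 0.0745, 0.111 and 0.0774), while Timp1 and Tgfbi were called in both. The call of Smad3 immediately against control was lost without control replicate 3 (adjusted p = 0.0562 by limma). Those of Ccn2 and Smad7 at 7 days against 1 day were lost with sex as a term (0.179 and 0.0753).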

How the data were processed

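The deposited series table holds log2 values, 2.06 to 14.63, for 45101 probe sets on 15 arrays; per the submitters' processing notes the authors used Affymetrix Expression Console, RMA and MAS5. Whether RMA or MAS5 made the table is not stated in the sources used here. Array medians were 5.87 to 5.92, so the values were used as deposited, and near background such signals compress. The 75th percentiles of the arrays were 7.62 to 7.75, with the lowest in 7-day replicate 2. At most 3.67% of values were identical between 2 arrays. Gene names came from the platform annotation, with 34945 probe sets of 1 gene, and the probe set with the highest mean stood for each of 18193 genes. The lowest 25% (at or below 4.70) were left out. A linear model of group means (limma 3.58.1 under R 4.3.3; eBayes moderation following the trend of variance with mean; 10 residual degrees of freedom) was run over all 13644 tested genes and all arrays, with 7 contrasts and 1 F test, each two-sided and adjusted by Benjamini-Hochberg. The code was tested on simulated data. Errors are standard errors of the fit unless marked SD, and 3 arrays a group limit the precision.

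The members, classes, companion lists and marker lists were chosen with earlier results of these data known. Called members are given by array, with the 3 smallest p where fewer than 3 were called. Other members given by array, the promoter stretches, the motifs and the plot against bone markers were chosen after their values were seen. Same-numbered arrays did not pair: the correlations of their deviations from the group means ran from -0.33 to 0.30 over 30 pairs. Other filters, probe set rules, eBayes settings, array weights, scalings, a replicate block, a sex term, 2-group fits, a threshold of 0.1 and leaving out each array were tried. Some listed genes are not reported here.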

Additional observations from a re-analysis of the deposited data

Results flagged for a closer look

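Changes between consecutive times, tested themselves, drew attention to 3 values. Col16a1 at 1 day minus immediate was 0.77, and at 7 days minus 1 day it was -0.65, so the comparison with the time before moved in opposite directions. Col3a1 at 1 day minus immediate was -0.82.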

How the results depend on the processing

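Col16a1 kept its calls at 1 day against control, at 1 day against immediate and at 7 days against 1 day in all alternatives run. Counts of called chains otherwise moved with the setting. Immediately against control, where 0 were called, array weights gave 2 and the 2-group fit 1. At 1 day against control, with 2 called, the count was 5 with array weights or at adjusted p under 0.1. It was 1 with eBayes without trend, with sex as a term and with control replicate 3 and 7-day replicate 2 both left out. It was also 1 with the lowest 50% of genes left out, where Col4a3 was itself among the genes removed and was not tested. At 1 day against immediate, with 2 called, it was 3 with the mean over probe sets, 1 with robust eBayes or with sex as a term, 4 with array weights or at adjusted p under 0.1, 5 with those 2 arrays left out and 6 in the 2-group fit. For the F test, with 1 called, it was 2 with the mean over probe sets, 3 with quantile normalization or a common 75th percentile, 4 with array weights and 5 at adjusted p under 0.1. Leaving out each array in turn gave 1 to 3 at 1 day against control, 1 to 5 at 1 day against immediate and 1 to 3 for the F test. The replicate block, although the numbers do not pair the samples, gave 1 immediately and 4 in each of the 2 comparisons of 1 day and in the F test. Apart from the removal of Col4a3 by that filter, the cause of these shifts was not tested. Leaving out both arrays, and female arrays alone, were chosen after seeing the data.

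Other probe sets of the same genes, 28 with a mean above the filter, had the opposite sign in 41 of 196 comparisons. Among the values named by rule, Col4a1 at 14 days against control was 0.00, where the reported probe set gave -0.40, and Col18a1 at 14 days against 7 days was 0.04, where it gave -0.13. With 3 animals a group and 1 control array apart from the rest, differences of Col1a1 and Col5a2 against control are imprecise (SE 0.56 and 0.23). Among female arrays alone there was no 1-day group, so the 1-day results were not checked within a sex.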
